A study of Homo sapiens with 8 samples.

Results

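The comparison described here sets normal fibroblasts that received medium from donor cells at day 7 of RAS induction (D7) against fibroblasts that received medium from the same kind of donor cells at day 0 (D0). It takes 4 of the 8 libraries of the series, namely D7 and D0 in each of 2 independent experiments, and was chosen by those labels with the experiment number as a block. The recipients were IMR90 cells, a primary fibroblast strain from human embryonic lung, and all of them were incubated with conditioned medium for 3 days. The donors were IMR90 ER:RAS cells, in which an oestrogen receptor fused to oncogenic RAS becomes active when 4-hydroxytamoxifen (4-OHT) is added. D7 medium came from donors given 4-OHT until day 7. D0 medium came from donors of the same engineered line at day 0, so the control medium was also conditioned by ER:RAS cells. RAS induction, exposure to 4-OHT and time since its addition differed together between these donors and cannot be told apart here. The other 4 libraries received D4 or D10 medium and shared the estimate of the spread between libraries. All recipients came from 1 cell strain, donor medium was not fractionated, and the donors' own RNA was not part of these libraries.

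Oncogenic RAS drives fibroblasts into senescence, a lasting arrest in which cells release a changing mix of growth factors, cytokines, proteases and matrix proteins known as the senescence-associated secretory phenotype. Neighbouring cells that receive this mix can change their own growth, matrix and contractile programmes, a response called paracrine signalling. Receptor tyrosine kinase ligands act largely through ERK, TGF-beta and BMP ligands act through SMAD proteins, and inflammatory cytokines act through NF-kappaB. Each pathway switches on genes that serve as a readout in the receiving cell.

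The 8 libraries held 11708193 to 13395912 counts in genes, and the 4 compared here held 12591282 to 13395912. Of 27696 genes in the table, 13798 passed the filter on low counts and were tested. Fibroblast markers were high in every library: the collagen gene COL1A1 stood at 14499 and 8694 CPM (counts scaled to a common library size) with D0 medium and at 8735 and 8826 CPM with D7 medium. KRT14, a keratin of epithelium, had no count in these 4 libraries, the leukocyte marker PTPRC had at most 1 count and the endothelial marker PECAM1 at most 13 counts. The highest members were the leukocyte marker CD14, with at most 32 counts, and the endothelial marker VWF, with at most 31. The summed level of 4 epithelial markers was 0.587 to 0.917 CPM, that of 5 endothelial markers 1.6 to 4.35 CPM and that of 5 leukocyte markers 1.46 to 3.02 CPM, and none of the 3 members tested, ELF3, VWF and CD14, was called. HRAS was checked because the donors carry a RAS transgene. It stood at 54.3 and 37.9 CPM in the D0 recipients and at 55.5 and 33.2 CPM in the D7 recipients. The log2 difference was -0.08. Both media came from donors with the transgene, so this difference cannot show whether donor RNA was carried over.

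After D7 medium, 172 genes passed the test, 70 higher and 102 lower than after D0 medium. A gene was called where edgeR's quasi-likelihood test with the experiment as a block gave a Benjamini-Hochberg adjusted p under 0.05 and the change had the same sign within both experiments. These calls made up 1.25% of the genes tested, with 0.507% higher and 0.739% lower. Of all genes tested, 31.3% were higher after D7 medium in both experiments by sign alone and 31% were lower in both, so a shared sign by itself was common. The median change of the called genes was 1.57 on the log2 scale among those that rose and -1.46 among those that fell, against 0.00 over all genes tested. 147 of the called genes differed at least 2-fold, 59 of them upward and 88 downward. In 170 of the 172, the D7 and D0 levels did not overlap, as against 28.9% of all genes tested. Calling selects for large and separated changes, so neither the medians nor this gap is a further result. Since these are bulk libraries, fewer cells expressing a gene and less of its RNA per cell cannot be told apart.

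**Figure D1:**
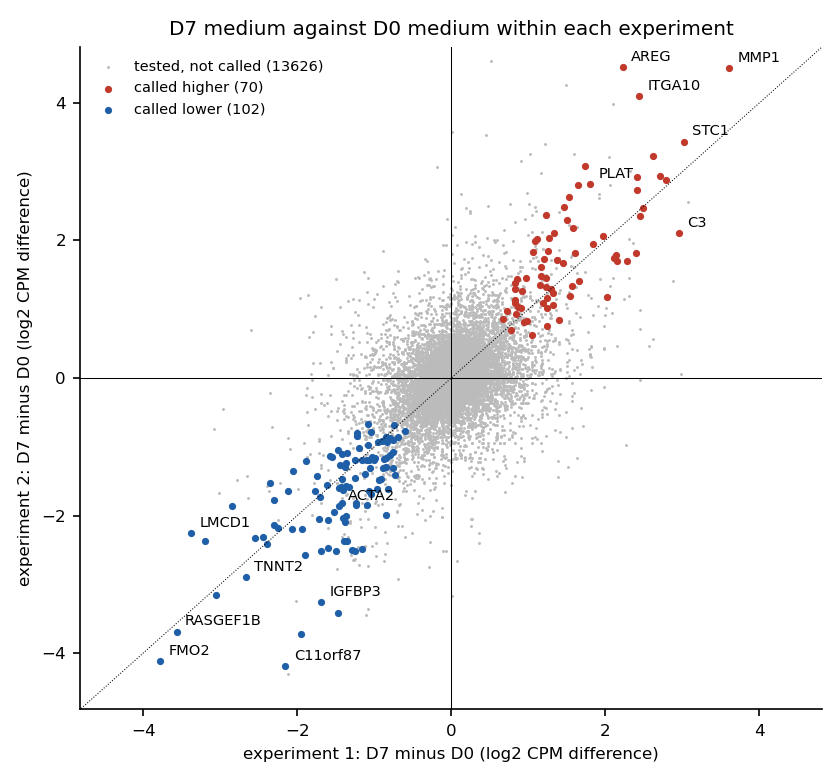
Change in log2 CPM from D0 to D7 medium in experiment 1 (horizontal) and experiment 2 (vertical) for all 13798 genes tested, with the 70 called higher in red, the 102 called lower in blue, and a dotted line of equal change. The called genes lie away from 0 in both experiments, and MMP1 and AREG changed more in experiment 2 than in experiment 1.

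The count depended on treating the 2 experiments as pairs. Without the block no gene passed the adjusted threshold, while 599 had an unadjusted p under 0.05 against 1456 with the block. DESeq2 called 356 genes with the block and 113 without it. The changes within an experiment had an SD across genes of 0.474 and 0.545 on the log2 scale, while the 2 D0 libraries stood apart by an SD of 0.621, more than either change. No gene was called when the D0 library of experiment 2 or either D7 library was left out, and 49 were called without the D0 library of experiment 1. Leaving out one D10 library raised the count to 819 or 778, and one D4 library lowered it to 114 or 113. Each of the 172 genes kept its direction in every one of these fits in which it was tested. The fits reuse the same libraries and the genes were chosen for a shared sign, so a reversal was unlikely beforehand. The change was larger in experiment 2 for 47 of the 70 genes that rose and for 70 of the 102 that fell.

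The largest called rise with high counts was that of MMP1, the interstitial collagenase that cuts fibrillar collagens. MMP1 (ENSG00000196611.4, GRCh38 chr11:102789920-102798160, minus strand) stood at 111 and 62.4 CPM with D0 medium and at 1361 and 1421 CPM with D7 medium. The D7 libraries lay close together and far above both D0 libraries, a fitted rise of 4.00 on the log2 scale (SE 0.38, adjusted p = 0.00568), or 16.0-fold. WTAPP1, a transcribed pseudogene on the other strand whose exons overlap those of MMP1 and MMP3, was without a count (0) in the D0 libraries and had 12 and 13 counts in those given D7 medium, at least 4.05-fold higher if 3 counts per library are taken as the floor. MMP1 shared 7.61% of its exon bases with WTAPP1, and whether the counting used strand is not given in the sources used here. MMP1 was the only one of the 15 tested matrix metalloproteases and inhibitors to be called, and their median change was 0.03. MMP16, a membrane-type protease, stood at 0.419 and 1.24 against 2.22 and 3.04 CPM and was not called.

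Plasminogen activators rose with it. PLAT, tissue plasminogen activator, went from 985 and 918 to 3451 and 6463 CPM, a log2 rise of 2.30 (SE 0.29, adjusted p = 0.0135). PLAU, urokinase, went from 1182 and 1000.3 to 3066 and 3297 CPM, a log2 rise of 1.55 (SE 0.25, adjusted p = 0.03). Both libraries with D7 medium exceeded both with D0 medium for each gene, although 31.1% of the exon bases of PLAU lie opposite C10orf55. These were the 2 called of 8 tested genes of plasminogen activation, whose median was 0.21. The ADAMTS proteases held 3 falls and no rise among 16 tested members (median -0.36). ADAMTS1, which cleaves versican, fell from 810 and 832 to 391.5 and 335 CPM, ADAMTS8 from 128 and 106 to 49.5 and 35.7 CPM, and ADAMTS15 from 13.8 and 10.9 to 2.67 and 2.35 CPM. Their log2 changes were -1.18, -1.46 and -2.29.

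The list of smooth muscle contractile genes covers the apparatus that fibroblasts use when they become myofibroblasts. It also holds genes outside that apparatus, such as the troponin subunit TNNT2, the receptor ADRA1B and the regulator SRF. Of its 26 tested genes 5 fell and none rose, with a median of -0.53. After D7 medium 24 were lower in both experiments, as against 31% of all genes. ACTA2, alpha smooth muscle actin, stood at 1347 and 1164 CPM with D0 medium and at 491 and 319 CPM with D7 medium. That was a log2 change of -1.67 (SE 0.18, adjusted p = 0.00702), although 30.1% of its exon bases lie opposite ACTA2-AS1 and FAS. The gamma smooth muscle actin ACTG2 went from 747 and 599 to 444 and 241 CPM, a log2 change of -1.02 (adjusted p = 0.0415). The actin-binding tropomyosin TPM1 changed by -1.07 from 797 and 753 to 402 and 337 CPM, with 21.4% of its exon bases on the strand opposite other genes. The troponin subunit TNNT2 was rare, at 2.77 and 2.69 CPM with D0 medium and 0.306 and 0.228 CPM with D7 medium, a log2 change of -3.32 (SE 0.50, adjusted p = 0.0239). ADRA1B, an adrenergic receptor that triggers contraction, went from 11.3 and 7.64 to 3.36 and 2.20 CPM. Calponin CNN1, at 188 and 130 against 122 and 82.1 CPM, was not called (adjusted p = 0.195), nor was the myosin heavy chain MYH11. The count of 5 became 10, of which 1 rose, when only D0 and D7 libraries entered the fit, 8, of which 1 rose, with DESeq2 and the block, 4 with DESeq2 without the block, and 1 when the D0 library of experiment 1 was left out. It became 2 without either D4 library, and 13, of which 1 rose, without either D10 library.

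The bases before the start of ACTA2 and ACTG2 are printed because both actin genes fell and because CArG boxes, the binding sequence of serum response factor, are known control elements of muscle actins. The windows run from 250 bases before the start up to it, on GRCh38.p14 from RefSeq, and are written 5′ to 3′ on the strand of the gene. Capitals mark CArG matches, taken as CC, then 6 bases of which at least 5 are A or T, then GG, which reads the same on both strands. The ACTA2 window is that of the downstream of its 2 starts in the table, chr10:88952774-88953023 on the minus strand, and that of ACTG2 is chr2:73892758-73893007 on the plus strand.
ACTA2: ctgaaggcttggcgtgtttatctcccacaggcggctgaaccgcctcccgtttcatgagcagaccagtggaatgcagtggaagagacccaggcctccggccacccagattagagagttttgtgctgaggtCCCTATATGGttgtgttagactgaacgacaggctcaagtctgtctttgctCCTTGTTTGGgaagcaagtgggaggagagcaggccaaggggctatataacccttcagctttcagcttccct
ACTG2: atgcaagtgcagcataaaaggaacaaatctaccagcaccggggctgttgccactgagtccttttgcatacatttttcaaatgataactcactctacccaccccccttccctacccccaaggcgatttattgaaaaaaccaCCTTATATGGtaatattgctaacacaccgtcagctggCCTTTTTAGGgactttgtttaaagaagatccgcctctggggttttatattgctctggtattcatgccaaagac
Each window holds 2 CArG matches, at 121 and 71 bases before the start in ACTA2 and at 110 and 73 bases before it in ACTG2. Of 27305 genes in the promoter table, 8.6% hold at least 1 such match in a window of this length. The window of the upstream ACTA2 start has none. ACTA2 and ACTG2 were not among the largest called falls, so their windows were not chosen by size of change. They were chosen as muscle actins with known CArG boxes, so matches were likely beforehand and are no further result. For the called contractile genes TPM1 and ADRA1B no CArG match was found, but either may be missing from the promoter table. TNNT2 and IGFBP3 were the called members of the contractile and TGF-beta target lists among the largest falls. Their windows have no CArG match, no AP-1 match (TGAGTCA on either strand, in 5.19% of all genes) and no kappaB match (in 6.28%). The window of TNNT2 is chr1:201377681-201377930 and that of IGFBP3 chr7:45921273-45921522, both on the minus strand.
TNNT2: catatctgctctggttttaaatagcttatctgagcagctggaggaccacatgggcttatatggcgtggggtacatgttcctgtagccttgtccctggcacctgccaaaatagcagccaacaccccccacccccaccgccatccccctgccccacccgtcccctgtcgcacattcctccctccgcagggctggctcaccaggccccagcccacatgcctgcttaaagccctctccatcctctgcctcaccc
IGFBP3: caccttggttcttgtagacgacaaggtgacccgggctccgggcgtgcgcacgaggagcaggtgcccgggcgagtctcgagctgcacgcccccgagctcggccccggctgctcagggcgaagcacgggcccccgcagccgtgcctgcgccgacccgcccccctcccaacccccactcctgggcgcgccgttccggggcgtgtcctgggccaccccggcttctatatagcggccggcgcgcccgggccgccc
Only 46 of the 70 called higher genes and 71 of the 102 called lower genes matched the promoter table. Among these, CArG matches were in 6.52% of the higher and 11.3% of the lower genes, ACTA2 and ACTG2 included. For kappaB the shares were 17.4% and 7.04%, and for AP-1 13% and 1.41%. The shares rest on at most 8 genes each, leave out the unmatched genes, and their differences were not tested.

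Among TGF-beta ligands, receptors and latency proteins, 2 of 21 tested genes fell and none rose (median 0.02). TGFB2, one of the TGF-beta ligands, stood at 80 and 77.8 CPM with D0 medium and at 29.2 and 25.5 CPM with D7 medium, a log2 change of -1.52 (SE 0.20, adjusted p = 0.0162). A stretch of 26.6% of its exon bases also belongs to TGFB2-OT1 on the same strand. BAMBI, a decoy receptor that TGF-beta and BMP signals induce, went from 63.9 and 43.2 to 14.6 and 13.7 CPM, a log2 change of -1.89 (adjusted p = 0.00568). Of 21 tested TGF-beta response genes, 2 fell, none rose and the median was 0.16, and none was called without either D4 library. IGFBP3, which binds insulin-like growth factors, went from 411 and 478 to 127 and 50 CPM (log2 change -2.57, adjusted p = 0.0356), and was also the 1 called member of the 13 tested genes of the IGF axis (median -0.33), of which IRS2 stood at 23.2 and 31.1 against 13.3 and 19.1 CPM (adjusted p = 0.123). SNAI2, a transcription factor of mesenchymal transition, went from 78.9 and 80.7 to 37.2 and 50.9 CPM. The connective tissue growth factor CTGF was not called and stood at 1563 and 2137 CPM with D0 medium and at 853 and 1111 CPM with D7 medium.

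The BMP branch moved in both directions, with 3 rises and 1 fall among 27 tested genes (median -0.09). BMP2 and the receptor ACVRL1 rose. BMP2 went from 15 and 10 to 50.3 and 86.3 CPM (log2 change 2.35, SE 0.37, adjusted p = 0.0261) and ACVRL1 from 15.2 and 8.88 to 38.3 and 38.8 CPM (1.76). The signal transducer SMAD1 went from 7.63 and 12.1 to 20.3 and 21.8 CPM. BMP4, a second BMP ligand, fell from 191 and 156 to 64.1 and 71.4 CPM, a log2 change of -1.34. ID1, a standard target of BMP signals, stood at 10.3 and 7.06 against 12.5 and 27.7 CPM and was not called (adjusted p = 0.241). With DESeq2 and the block 4 members of this list rose and 3 fell, and no member was called without either D4 library.

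ERK feedback genes encode phosphatases and Sprouty proteins that ERK induces and that damp it in turn. Of 19 tested members 5 rose, none fell, 15 were higher in both experiments (31.3% of all genes), and the median was 0.52. SPRY4 went from 61.1 and 49.4 to 127 and 177 CPM, a log2 rise of 1.47 (SE 0.27, adjusted p = 0.0413), and SPRY2 from 28.2 and 43.6 to 66.9 and 88.6 CPM (1.13, adjusted p = 0.012). The phosphatase DUSP6 went from 104 and 111 to 201 and 196 CPM (0.88, adjusted p = 0.0263). DUSP4, another ERK phosphatase, went from 5.45 and 2.91 to 11.8 and 12 CPM, and SPRED3 from 25.8 and 20.6 to 48.3 and 41.7 CPM. In all 5 genes both D7 libraries lay above both D0 libraries. The count was 9 with D0 and D7 libraries only, 7 with DESeq2 and the block, 4 with DESeq2 without it, 3 without either D4 library, 10 without either D10 library and 0 without the D0 library of experiment 1.

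Among growth factor ligands, AREG rose and FGF9 and ANGPT1 fell, out of 20 tested (median 0.15). AREG, amphiregulin, a ligand of the EGF receptor, went from 3.02 and 1.97 to 14.7 and 48.5 CPM, a log2 rise of 3.49 (SE 0.49, adjusted p = 0.0177) that was 2.22 within experiment 1 and 4.52 within experiment 2. FGF9, a ligand of lung mesenchyme, fell from 9.72 and 16.3 to 1.53 and 3.11 CPM (-2.50, adjusted p = 0.00667). ANGPT1, which steadies blood vessels, fell from 83.6 and 172 to 35 and 29.8 CPM (-1.86). HBEGF, another EGF receptor ligand, stood at 14.5 and 13.2 against 38.4 and 19.2 CPM and was not called (adjusted p = 0.0875). The AP-1 subunit FOSL1, an ERK-responsive transcription factor, was the 1 called of 19 AP-1 and immediate-early genes (median 0.21), with a rise of 0.89 from 94.9 and 66.4 to 169 and 127 CPM. Its relative FOSL2 stood at 82.7 and 91.4 against 57.8 and 46.4 CPM (adjusted p = 0.205). The Notch ligand DLL4 rose from 2.26 and 3.86 to 12.7 and 30.4 CPM (log2 change 2.77, adjusted p = 0.0298), alone among 11 Notch genes (median 0.00), of which RBPJ stood at 164 and 208 against 265 and 313 CPM (adjusted p = 0.275). WNT2 fell from 10.8 and 19.9 to 1.37 and 5.39 CPM (-2.32, adjusted p = 0.018), alone among 16 Wnt ligands and inhibitors (median 0.08), of which WNT5A stood at 334 and 466 against 214 and 307 CPM (adjusted p = 0.164).

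Few inflammatory genes were called. None of 10 tested inflammatory cytokines passed the test in edgeR, 1 had an unadjusted p under 0.05, and DESeq2 with the block called 1. Of 15 cytokines in the table the rest had too few counts to be tested. Of the 10, IL1A had no count in the 4 libraries compared, IL1B stood at 0.304 CPM at most, and IL24 had no count in the D0 libraries and 0.306 and 0.380 CPM with D7 medium. The comparison says nothing about these 3, which passed the filter on the counts of all 8 libraries. They still enter the median, which was 0.43 as fitted and 0.16 with them at the bound that 3 counts allow. IL6 stood at 5.03 and 10.2 CPM with D0 medium and at 4.66 and 8.20 CPM with D7 medium, so the groups overlapped. The cytokine LIF stood at 86.6 and 242 against 172 and 340 CPM, higher within each experiment but not called (adjusted p = 0.122), and TSLP at 29.2 and 32.1 against 35.1 and 55.5 CPM (adjusted p = 0.538). CXCL10, a chemokine that attracts T cells, was the 1 called of 12 tested chemokines. Their median was 0.30 as fitted and 0.02 at the bound, with 5 members at no more than 3 counts in each library of a group. At an unadjusted p under 0.05, 4 were higher and 0 lower, CCL7 among them, which is at that floor. CXCL10 rose from 1.76 and 1.38 to 7.64 and 3.34 CPM, a log2 change of 1.74 (SE 0.33, adjusted p = 0.0469). CXCL8, a chemokine that attracts neutrophils, stood at 1.01 and 2.77 against 4.28 and 7.75 CPM and was not called (adjusted p = 0.407).

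Among 22 tested genes of NF-kappaB feedback and response, 2 rose and 1 fell, with a median of 0.42. At an unadjusted p under 0.05, 9 were higher and 1 was lower. In both experiments 14 were higher and 3 lower, as against 31.3% and 31% of all genes. NFKBIA, the inhibitor that NF-kappaB induces to restrain itself, rose from 31.8 and 29 to 50.8 and 53.0 CPM (log2 change 0.77, SE 0.14, adjusted p = 0.039). IRAK2, a kinase of the interleukin-1 and Toll-like receptors, rose from 10.6 and 7.57 to 31.9 and 19.4 CPM (1.48, adjusted p = 0.0167). The adhesion molecule VCAM1, another NF-kappaB target, fell from 340 and 516 to 165 and 160 CPM (-1.37, adjusted p = 0.0239). The windows before CXCL10, NFKBIA and VCAM1, which moved in different directions, are printed as examples that hold a match, and capitals mark matches to the kappaB site on either strand. They are chr4:76023498-76023747 and chr14:35404750-35404999, both on the minus strand, and chr1:100719492-100719741 on the plus strand, in that order.
CXCL10: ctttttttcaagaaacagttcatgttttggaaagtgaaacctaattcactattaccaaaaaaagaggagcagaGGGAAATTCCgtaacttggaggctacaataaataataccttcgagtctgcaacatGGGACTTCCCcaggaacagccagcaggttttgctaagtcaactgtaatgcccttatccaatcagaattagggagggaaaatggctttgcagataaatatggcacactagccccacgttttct
NFKBIA: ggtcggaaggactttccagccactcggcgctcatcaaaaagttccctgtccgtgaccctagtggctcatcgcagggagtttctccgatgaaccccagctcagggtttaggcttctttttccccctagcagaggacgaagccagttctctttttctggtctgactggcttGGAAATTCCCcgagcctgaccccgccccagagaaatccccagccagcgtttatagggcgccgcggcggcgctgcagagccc
VCAM1: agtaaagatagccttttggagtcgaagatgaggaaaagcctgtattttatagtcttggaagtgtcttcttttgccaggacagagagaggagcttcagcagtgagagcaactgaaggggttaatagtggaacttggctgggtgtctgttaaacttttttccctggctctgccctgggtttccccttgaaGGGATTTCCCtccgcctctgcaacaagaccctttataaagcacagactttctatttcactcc
CXCL10 holds 2 matches, at 177 and 122 bases before the start, NFKBIA 1 at 81 bases and VCAM1 1 at 62 bases. A match of this kind occurs in 6.28% of all genes in the table. These 3 windows were chosen after their matches were seen. For PTGS2, which also rose, the window holds no kappaB match. No kappaB match was found for IRAK2, which rose too, but it may be missing from the promoter table.

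C3, the central complement protein, rose from 2.68 and 2.91 to 21.8 and 13.1 CPM, a log2 rise of 2.58 (SE 0.26, adjusted p = 0.00618), the 1 called of 10 tested complement genes (median -0.17), of which C1R stood at 295 and 302 against 172 and 262 CPM (adjusted p = 0.50). PTGS2, the inducible cyclooxygenase, rose from 1.34 and 4.37 to 5.73 and 18.8 CPM, a rise of 1.98 within experiment 1 and 2.06 within experiment 2 (fitted 2.14, adjusted p = 0.00667). Its D7 level in experiment 1 was only a little above its D0 level in experiment 2. It was the 1 called of 14 genes of prostaglandin synthesis and receptors (median 0.49), and the prostacyclin receptor PTGIR stood at 1.09 and 1.75 against 2.67 and 6.83 CPM (adjusted p = 0.0562). The list of interferon-stimulated genes, which leaves out the called chemokine CXCL10, had no call in edgeR among 32 tested. In that list 10 had an unadjusted p under 0.05 and the median was -0.46. Of the 32, 19 were lower and 2 higher in both experiments, as against 31% and 31.3% of all genes. The 2 with the smallest p were IFIT2, at 15 and 22.3 against 8.25 and 8.58 CPM (adjusted p = 0.0513), and GBP1, at 40.0 and 55.0 against 17.9 and 31.9 CPM (adjusted p = 0.0547). DESeq2 with the block called 4 members of that list lower, and 8 were called lower without either D10 library.

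Calls among matrix and adhesion genes were few in each list. None of 10 fibrillar collagens was called in edgeR (median -0.30, 1 at an unadjusted p under 0.05, 1 called by DESeq2 with the block), and COL3A1 stood at 3360 and 2250 CPM with D0 medium and at 1607 and 1446 CPM with D7 medium (adjusted p = 0.673). The 2 with the smallest p were COL11A1, at 3.44 and 17.7 against 1.6 and 3.11 CPM (adjusted p = 0.123), and COL5A3, at 9.8 and 3.71 against 4.96 and 2.81 CPM (adjusted p = 0.482). Of 18 other collagens (median 0.16), only the transmembrane collagen COL13A1 was called, with a rise from 31.8 and 28.5 to 57.7 and 77.5 CPM, and COL14A1 stood at 61.8 and 52.1 against 17.9 and 18 CPM (adjusted p = 0.121). Of 19 elastic fibre and microfibril genes (median -0.12), FBN2, MFAP4 and EFEMP1 fell. FBN2, a fibrillin of developing tissue, went from 1165 and 1127 to 432 and 376 CPM, a log2 change of -1.51 (SE 0.24, adjusted p = 0.0298). MFAP4 went from 235 and 239 to 89.8 and 97.4 CPM and EFEMP1 from 469 and 402 to 251 and 212 CPM. Of 20 proteoglycans and hyaluronan genes (median -0.23), lumican LUM fell from 243 and 444 to 147 and 166 CPM and the heparan sulphate proteoglycan SDC2 from 119 and 117 to 56.1 and 59.3 CPM. LUM was also the 1 called of 8 fibroblast markers (median -0.56), of which VIM stood at 7061 and 5099 against 7317 and 5538 CPM and PDGFRB at 481 and 437 against 230 and 253 CPM. None of 14 matricellular proteins was called in edgeR (median -0.15, 5 at an unadjusted p under 0.05, 1 called by DESeq2 with the block), and tenascin TNC stood at 782 and 411 against 1155 and 1626 CPM. Of 30 integrins and focal adhesion genes (median 0.04), the collagen receptor subunits ITGA2 and ITGA10 rose. ITGA2 went from 189 and 199 to 577 and 704 CPM (log2 change 1.72) and ITGA10 from 4.44 and 3.20 to 24.8 and 57.3 CPM (3.36, adjusted p = 0.0276).

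Metallothioneins are small proteins that bind zinc and copper. Of 8 tested metallothioneins and zinc transporters 3 rose and none fell, with a median of 0.46. MT2A went from 380 and 183 to 895 and 944 CPM, a log2 rise of 1.78 (SE 0.29, adjusted p = 0.0298). MT1E went from 38.2 and 29.6 to 82.6 and 120 CPM and MT1L from 3.69 and 2.26 to 11.8 and 16.7 CPM. These genes share stretches of sequence with other metallothioneins, 7.1% of 50-base words for MT1E and 4.42% for MT1L, so reads may be split among them. Among 24 tested NRF2 and antioxidant genes 2 fell, none rose, 17 were lower in both experiments (31% of all genes), and the median was -0.70. DESeq2 with the block called 8 of them lower and 1 higher, leaving out either D10 library gave 11 lower and 2 higher, and leaving out the D0 library of experiment 1 gave none. HMOX1, the inducible haem oxygenase, fell from 23.3 and 27.4 to 8.71 and 8.73 CPM (log2 change -1.53, SE 0.28, adjusted p = 0.0408). AKR1C1, an aldo-keto reductase, fell from 43.7 and 24 to 16 and 9.87 CPM, but 28.6% of its 50-base words occur in AKR1C2, AKR1C3 or AKR1C4. NQO1, a standard NRF2 target, stood at 249 and 302 against 141 and 114 CPM and was not called (adjusted p = 0.0671).

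**Figure D2:**
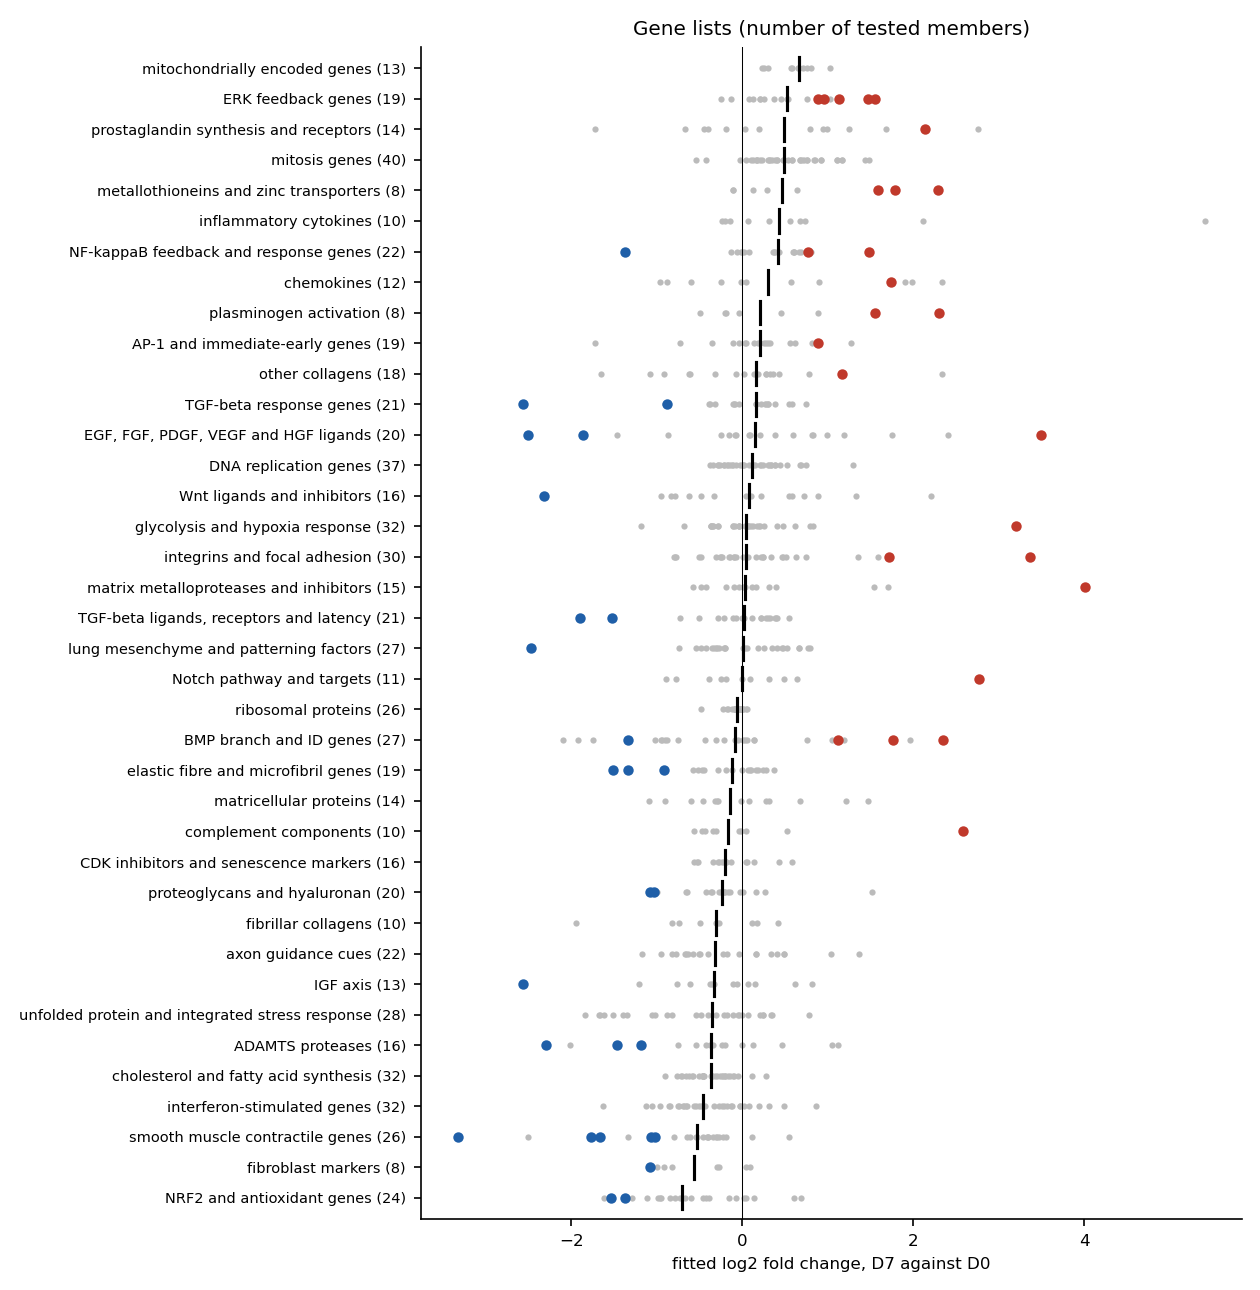
Fitted log2 fold change of every tested member of each gene list with at least 8 tested members, ordered by the list median (black bar), with members called higher in red, called lower in blue and the rest in grey. ERK feedback genes and metallothioneins hold only red calls, smooth muscle contractile genes, ADAMTS proteases and elastic fibre genes hold only blue calls, and BMP genes hold both.

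The lists of CDK inhibitors and senescence markers, of DNA replication and of mitosis held no call in edgeR or in DESeq2 with the block. Of their members 4 had an unadjusted p under 0.05. The called genes SKP2, HMGA1 and HMGA2, given below, were on none of these lists. Among 16 CDK inhibitors and senescence markers the median was -0.20, and CDKN1A, the p21 inhibitor, stood at 1733 and 1316 CPM with D0 medium and at 1468 and 1049 CPM with D7 medium. CDKN2B stood at 24.9 and 36.9 against 38.8 and 53.8 CPM and HMGB2 at 11.1 and 22.5 against 8.78 and 13.9 CPM. Among 37 DNA replication genes the median was 0.11, and MCM7 stood at 31.0 and 24.1 against 32.5 and 43.1 CPM and CDT1 at 3.44 and 3.06 against 4.51 and 5.77 CPM. Among 40 mitosis genes the median was 0.48 and 31 were higher in both experiments, as against 31.3% of all genes. AURKA, the mitotic kinase with the smallest p of that list, was lower in both experiments, at 20.1 and 31.7 against 17.7 and 17.2 CPM (adjusted p = 0.356). BUB1B, a spindle checkpoint kinase, stood at 1.09 and 2.33 against 2.52 and 5.16 CPM (adjusted p = 0.435). The stanniocalcin gene STC1, a secreted hormone, rose from 61.5 and 44.6 to 499 and 485 CPM, a log2 rise of 3.20 (SE 0.28, adjusted p = 0.00568), but was the 1 called of 32 genes of glycolysis and hypoxia response (median 0.04), of which ENO2 stood at 38.9 and 34.6 against 65.8 and 48.0 CPM (adjusted p = 0.0944). Of 27 lung mesenchyme and patterning factors (median 0.01), the nuclear protein TOX fell from 14.7 and 16.5 to 2.67 and 2.96 CPM (-2.47, adjusted p = 0.00568), and HOXB5 stood at 61.8 and 37.5 against 88.3 and 78.1 CPM (adjusted p = 0.10). No member was called of 32 cholesterol and fatty acid synthesis genes (median -0.36, 20 lower in both experiments), 28 unfolded protein and integrated stress response genes (-0.36), 22 axon guidance cues (-0.31), 26 ribosomal protein genes (-0.07) or 13 mitochondrially encoded genes (0.66, 12 higher in both experiments). Over all genes, 31% were lower and 31.3% higher in both experiments. At an unadjusted p under 0.05 stood 9, 9, 6, 0 and 1 members of these 5 lists, and DESeq2 with the block called 0, 1, 3, 0 and 0. Of these lists, the members with the smallest p were MVK, DHCR7, SLC7A11, SLC7A5, SEMA3A, NTN4, RPL7, RPLP1, MT-ND6 and MT-ATP8. The cystine transporter SLC7A11 stood at 101 and 274 against 51.1 and 51.7 CPM (adjusted p = 0.0987), the mevalonate kinase MVK at 40.1 and 29.7 against 31.9 and 14.2 CPM (adjusted p = 0.21), and the guidance cue SEMA3A at 94.1 and 114 against 214 and 210.1 CPM (adjusted p = 0.0792). In all, 26 of the 41 lists held a called gene, and 51 of their 740 tested entries were called, as against 1.25% of all genes tested. The lists were chosen with earlier results of these data known, so this share does not measure enrichment. Genes that sit on several lists, such as IGFBP3 and LUM, count once for each list.

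**Figure D3:**
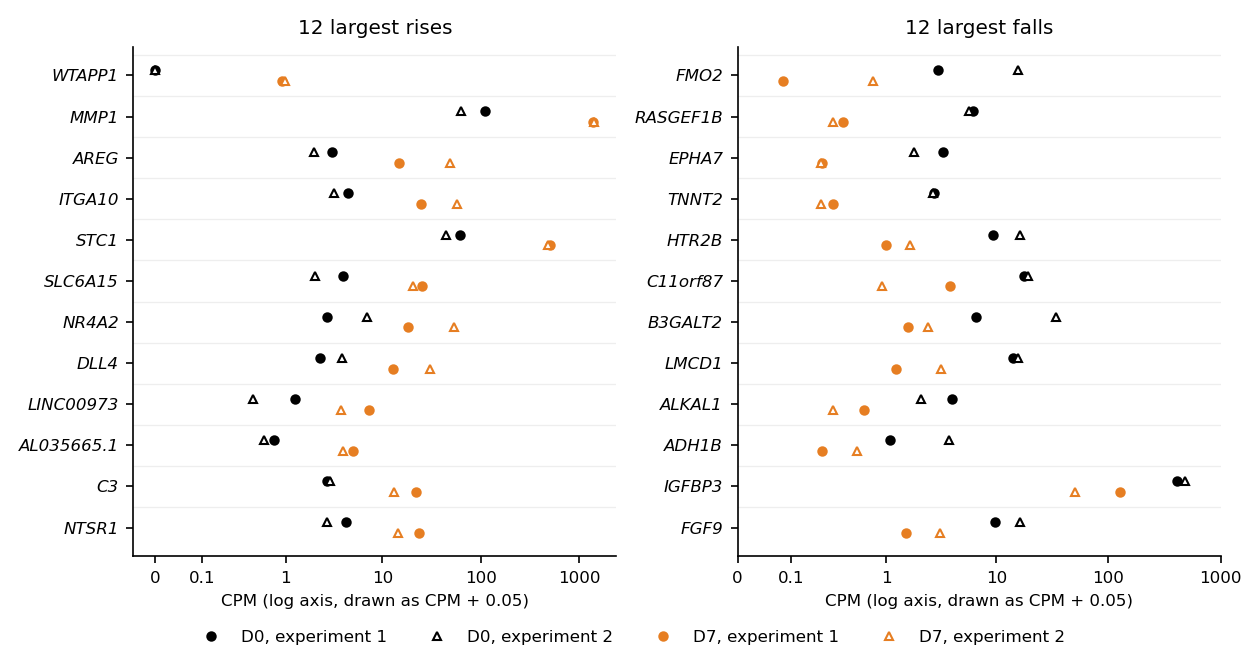
Level in CPM on a log axis of the 12 most raised and the 12 most lowered called genes, in D0 (black) and D7 (orange) libraries of experiment 1 (filled circles) and experiment 2 (open triangles). In each of these genes both D7 libraries lie on one side of both D0 libraries.

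The remaining large rises included a transporter, a nuclear receptor and a neuropeptide receptor. SLC6A15, a neutral amino acid transporter, rose from 3.94 and 2.04 to 25.1 and 20.4 CPM (log2 change 2.96, SE 0.30, adjusted p = 0.00618). NR4A2, an orphan nuclear receptor, rose from 2.68 and 6.92 to 18.3 and 53.8 CPM (2.87, SE 0.22, adjusted p = 0.00568). NTSR1, the neurotensin receptor, rose from 4.19 and 2.69 to 23.7 and 14.4 CPM. For each of the 3, both D7 libraries lay above both D0 libraries. The non-coding genes LINC00973 and AL035665.1 rose from 1.26 and 0.437 to 7.33 and 3.80 CPM and from 0.754 and 0.582 to 4.96 and 3.95 CPM. Of the 172 called genes, 165 were protein-coding and 7 were not.

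The largest fall was that of FMO2, a lung flavin monooxygenase, from 3.02 and 15.7 to 0.0764 and 0.759 CPM, a log2 change of -4.53 (SE 0.42, adjusted p = 0.00568). The level differed between experiments, but the change was -3.78 within experiment 1 and -4.11 within experiment 2. RASGEF1B, a guanine nucleotide exchange factor, fell from 6.20 and 5.75 to 0.382 and 0.304 CPM (-4.11, adjusted p = 0.0144). EPHA7, an ephrin receptor, had 3 counts in each D7 library, a ratio of 0.0902 to the D0 libraries with a 95% counting interval of 0.0319 to 0.207. HTR2B, a serotonin receptor, fell from 9.38 and 16.2 to 0.993 and 1.67 CPM (-3.25, adjusted p = 0.00568), and 24.9% of its exon bases lie opposite PSMD1. LMCD1, a LIM domain protein, fell from 14.2 and 15.8 to 1.22 and 3.19 CPM, and the galactosyltransferase B3GALT2 from 6.62 and 34.1 to 1.6 and 2.43 CPM. C11orf87 fell from 17.5 and 19.2 to 3.82 and 0.911 CPM. ADH1B, an alcohol dehydrogenase, fell from 1.09 and 3.79 to 0.229 and 0.532 CPM and the receptor ligand ALKAL1 from 4.02 and 2.11 to 0.611 and 0.304 CPM. Several of these D7 values rest on fewer than 10 counts.

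Some further called genes, chosen after their values were seen, have well-known roles. The chromatin proteins HMGA1 and HMGA2 rose from 646 and 322 to 1563 and 1321 CPM (log2 change 1.67, adjusted p = 0.0379) and from 79.1 and 138 to 384 and 448 CPM (1.99, adjusted p = 0.00684). The transcription factor SOX9 rose from 47.5 and 43.9 to 111 and 121 CPM. SOCS2, which restrains cytokine signalling, rose from 17.2 and 19.4 to 40.3 and 48.7 CPM, and the NF-kappaB kinase subunit IKBKB from 55.3 and 55.5 to 91.4 and 109 CPM. The interleukin-6 receptor IL6R fell from 28.0 and 26.4 to 11.8 and 7.37 CPM (-1.54, adjusted p = 0.0135) and the transcription factor CEBPD from 92.4 and 98.9 to 31.4 and 44.6 CPM. The ubiquitin ligase subunit SKP2 fell from 26.6 and 37.8 to 14.7 and 9.34 CPM. The iron exporter SLC40A1 fell from 15.7 and 33.3 to 5.88 and 6.30 CPM, the nitric oxide receptor subunit GUCY1B3 from 5.28 and 11.2 to 1.30 and 1.75 CPM, and the natriuretic peptide clearance receptor NPR3 from 24 and 26.1 to 9.32 and 4.94 CPM. In each of these 11 genes both D7 libraries lay on one side of both D0 libraries.

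The day 7 medium was then set against the media before and after it, in the same fit and with shared libraries. Between D7 and D4 medium no gene passed the adjusted threshold in edgeR (0% of genes tested), 509 had an unadjusted p under 0.05, and DESeq2 called 2 genes with the block and 1 without it. Between D10 and D7 medium 44 genes were called, 42 higher and 2 lower with D10 medium, or 0.319% of those tested, and 1473 had an unadjusted p under 0.05. No gene was called in that comparison without the block or without the D7 library of experiment 2, and 1695 were called without the D10 library of experiment 1. That count was 26 or 24 without a D4 library, 18 without the D7 library of experiment 1 and 76 without the D10 library of experiment 2.

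The D4, D7 and D10 changes against D0 shared the D0 libraries and are given side by side. For C3 the fitted log2 changes were -0.06, 2.58 and 6.74, for PTGS2 0.59, 2.14 and 5.33, and for CXCL10 -0.07, 1.74 and 4.49. In these 3 genes the D4 change was not called (adjusted p = 0.993, 0.589 and 0.993). Nor was D7 minus D4 called in the direct test (adjusted p = 0.068, 0.471 and 0.916), so a start between D4 and D7 is not shown. D10 exceeded D7 in the direct test by 4.16, 3.19 and 2.75 (adjusted p = 0.000299, 0.000345 and 0.00458). NFKBIA changed by -0.03, 0.77 and 1.79, and its D7 minus D4 difference was not called (adjusted p = 0.916). Other genes were already apart with D4 medium: STC1 changed by 2.54, 3.20 and 5.08, NR4A2 by 2.05, 2.87 and 4.41 and MMP1 by 2.88, 4.00 and 5.69. STC1 and NR4A2 were higher with D10 than with D7 medium (adjusted p = 0.0284 and 0.0168), while for MMP1 that difference was 1.68 and was not called (adjusted p = 0.117). The ERK feedback gene SPRY2 changed by 0.97, 1.13 and 0.79, SPRY4 by 1.02, 1.47 and 1.34, BAMBI by -1.68, -1.89 and -1.95 and TGFB2 by -1.24, -1.52 and -1.66. For these 4 the D10 minus D7 difference was at most 0.34 in size and was not called. ACTA2 changed by -1.05, -1.67 and -2.79, and its D10 minus D7 difference of -1.13 was not called (adjusted p = 0.0545). VCAM1 changed by -1.68, -1.37 and -0.15.

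**Figure D4:**
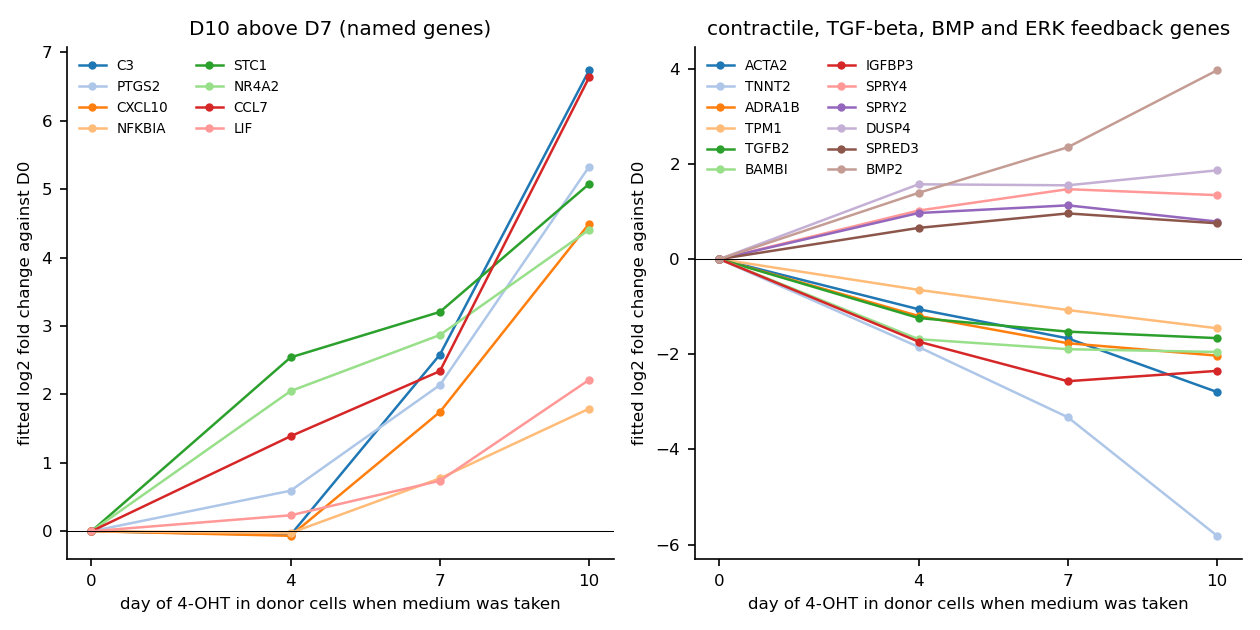
Fitted log2 fold change against D0 medium (vertical) with D4, D7 and D10 medium (horizontal, day of 4-OHT in the donors) for 8 named genes higher with D10 than with D7 medium (left) and 12 contractile, TGF-beta, BMP and ERK feedback genes (right). C3, CXCL10 and NFKBIA lie near 0 at D4 and rise at D7 and D10, while SPRY2, SPRY4, BAMBI and TGFB2 change little between D7 and D10.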

How the data were processed

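RNA-seq libraries of recipient IMR90 cells were analysed from the deposited table of raw counts per gene, which the authors made, per the submitters' processing notes, with STAR 2.5 on GRCh38 (hg38) and DESeq2. The counting tool and its strand setting are not given in the sources used here. The 8 columns of normalised values beside the counts were not used. Counts were filtered with filterByExpr, scaled by TMM and tested with edgeR 4.0.16 (R 4.3.3) on all 8 libraries, with group and experiment as terms. CPM are TMM-scaled, and changes within an experiment use log2 CPM with a prior count of 2. Depth was 11708193 to 13395912 counts per library, and counting intervals and floors cover counting error only. Libraries of 1 experiment deviated together (r across genes 0.418 to 0.722 over 6 pairs of groups). Alternatives were DESeq2 1.42.0, other filters, scaling and thresholds, and leaving out each library. The text names the 12 largest called rises and the 12 largest called falls with at least 10 counts in each library of the higher group, up to 4 called members of each list, and the members with the smallest p where fewer than 2 were called. ACTG2, DUSP6, CNN1, MYH11, ID1, HBEGF, IL6, IL1A, IL1B, IL24, CXCL8, COL3A1, NQO1 and CDKN1A fall outside that rule and were added after their values were seen. The genes and lists were chosen with earlier results of these data known. Positions are from GENCODE 29, which held 99.6% of the gene identifiers, and promoter windows from RefSeq (GRCh38.p14). MMP1 was not in the promoter table. The statistics were tested on counts simulated from the blocked fit itself. Such counts cannot show whether the block suits these data or why the calls depend on single libraries.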

Additional observations from a re-analysis of the deposited data

Results flagged for a closer look

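In 8 of the named genes the change against D0 differed between D7 and D10 medium by a direct edgeR test with the experiment as a block. D10 minus D7 on the log2 scale was 4.16 for C3 (adjusted p = 0.000299), 3.19 for PTGS2 (adjusted p = 0.000345), 2.75 for CXCL10 (adjusted p = 0.00458) and 4.30 for CCL7 (adjusted p = 0.013). It was 1.87 for STC1 (adjusted p = 0.0284), 1.54 for NR4A2 (adjusted p = 0.0168), 1.48 for LIF (adjusted p = 0.0176) and 1.02 for NFKBIA (adjusted p = 0.0242). D10 was the higher in each. The chemokine CCL7 and the cytokine LIF were not called between D7 and D0 (adjusted p = 0.367 and 0.122), and CCL7 stood at 0.168 and 0.146 CPM with D0 medium and 0.687 and 0.835 CPM with D7 medium. No gene was called in this comparison without the block or without the D7 library of experiment 2.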

How the results depend on the processing

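The counts depended on the experiment block and on single libraries. Between D7 and D0 medium, 172 genes were called as reported, 0 without the replicate block (599 at an unadjusted p under 0.05), 580 with the compared groups only, 356 and 113 by DESeq2 with and without the block, 805 with no filter on low counts and 26 at an adjusted p under 0.01. Leaving out each library in turn gave 0 to 819 genes, with 0 without D0 replicate 2, D7 replicate 1 or D7 replicate 2, and with an unadjusted p under 0.05 in 654, 1259 and 844 genes. DESeq2 size factors, at least 10 counts in every library and a 2-fold threshold gave 170, 142 and 147. All 172 kept their direction wherever they were tested, which the shared libraries and the choice by shared sign made likely beforehand. Between D7 and D4 medium the count of 0 became 43 with the compared groups only, 2 and 1 by DESeq2 with and without the block, 44 without the filter, and 0 to 2 with a library left out. Between D10 and D7 medium the count of 44 became 0 without the replicate block (489 at an unadjusted p under 0.05), 222 by DESeq2 with the block, 806 without the filter, 27 with at least 10 counts in every library, 15 at an adjusted p under 0.01, and 0 to 1695 with a library left out. The cause of these shifts was not tested.

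Some genes that were not called turned sign when a library was left out. Over those fits ELF3 ranged from -0.84 to 1.27 (0.0082 without D7 replicate 1), VWF from -0.85 to 0.28, CD14 from -0.35 to 0.95 (-0.13 without D0 replicate 2) and HRAS from -0.17 to 0.012.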
